A study of Mus musculus with 23 samples.

Results

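The integrin and laminin genes of the mouse were examined in bulk RNA from liver tissue free of visible tumors. They were chosen by name alone: a symbol of the count table had to be that of an integrin α subunit, an integrin β subunit or a laminin α, β or γ chain, with a read in any mouse. This gave 37 genes of the 20380 with a read, comprising 18 integrin α, 8 integrin β and 11 laminin genes. The samples came from 15 female mice in 3 groups that differ in *Braf* and *Icmt*. They also differ in strain label: 5 of the 6 Ctrl mice carried 1 label, and BG3 and all mice of the other groups another. The 6 Ctrl mice were Alb-Cre/Trp53flx/flx/Icmt flx/+ with wild-type *Braf*. The 6 ABpIF/+ mice carried, in addition, the conditional knock-in allele of BrafV600E (BrafCA/+) with Icmt flx/+, and the 3 ABpIF/F mice the same alleles with Icmt flx/flx. The genotype field of the labels writes "BRAF +/+" for both knock-in groups, whereas the design text gives BrafCA/+. All groups, Ctrl included, therefore shared Alb-Cre, which acts in hepatocytes because the albumin promoter drives it, the loss of *Trp53* and at least 1 floxed *Icmt* allele. The ages of the sequenced mice are not in the labels. The paper obtained only 3 ABpIF/F mice, of different ages. It reports liver tumors in all of them, with a burden that correlated with age. Which of the ABpIF/F mice here had which age is not given, and neither age nor tumor burden was in the fit.

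Integrins are surface receptors made of 1 α and 1 β subunit, and the pair decides which ligand is bound. Laminins are secreted trimers of an α, a β and a γ chain that form the sheet of basement membranes, to which the laminin-binding integrins attach cells. Healthy hepatocytes face sinusoids without a continuous basement membrane, while bile ducts, vessels and nerves of the liver rest on one. Leukocyte integrins of the β2 and β7 families mark blood-derived and resident immune cells.

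The counts on genes summed to 24742910 to 32262649 per mouse. The targeted gene *Icmt* (Entrez 57295) had between 15.2 and 16.6 CPM in the ABpIF/F mice, below the lowest value of 27.8 CPM in Ctrl and in ABpIF/+ mice. Levels are given as CPM, counts scaled to library size after TMM normalization. Of the Ctrl mice, only BG3 carried the strain label of all ABpIF/+ and ABpIF/F mice, so strain label and genotype are almost the same split. BG38, an ABpIF/F mouse, had the highest CPM of all 15 mice in 25 of the 37 genes. The share of all genes that were highest in BG38 was not computed. BG38 also had the most genes with a read of all mice, 18039, and the largest TMM factor, 1.24. A score of circadian clock genes lay between 0.86 and 3.27 in the ABpIF/F mice and was 2.29 in the Ctrl mouse malpa387, while the other mice lay between -1.25 and -0.13. Liver identity was plain from *Alb*, which held a mean of 12.4% of the counts. Of the hepatocyte markers 7 were in the table and none was called in any comparison, but not all were level. In ABpIF/+ vs Ctrl the log2 fold change was 0.79 for *Alb*, 0.88 for *Ahsg*, 0.51 for *Hnf4a* and -0.81 for *Ttr*. Each had an edgeR adjusted p under 0.01 and no overlap between these groups, but stayed under the 2-fold limit. The other markers did not reach that adjusted p in this comparison.

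More genes of the set were called lower than higher in ABpIF/+ livers, and those called in ABpIF/F livers were higher, against Ctrl and against ABpIF/+ alike. Calls were made with edgeR's quasi-likelihood test at a 2-fold change or more and a Benjamini-Hochberg adjusted p, taken over the whole table, under 0.01. In ABpIF/+ vs Ctrl 13 of the 37 genes were called, 3 higher and 10 lower, where 13.4% of all genes with a read were called, 6.26% higher and 7.13% lower. In ABpIF/F vs Ctrl 7 were called, all higher, against 9.24% of all genes, 6.06% higher and 3.17% lower. In ABpIF/+ vs ABpIF/F 17 were called, all lower in ABpIF/+, against 9.66% of all genes, 2.35% higher and 7.32% lower. The median log2 fold change of the 37 genes was -0.57, 0.79 and -1.58 in the same order, and that of all genes with a read was 0.00, 0.09 and -0.05. For the directions with no call, an unadjusted p under 0.05 was reached by 2 genes that were lower in ABpIF/F than in Ctrl and by 1 that was higher in ABpIF/+ than in ABpIF/F, and DESeq2 called 1 and 0 genes in these directions. Of the 30 genes with a mean of 1 CPM or more over all mice, 12, 6 and 17 were called, against 17.6%, 12.6% and 12.2% of all genes at that level. The comparisons share their mice, and 16 of the 37 genes were called in none.

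Adding the strain label to the fit, which then rests on the single Ctrl mouse BG3 for genotype, left 5 calls in ABpIF/+ vs Ctrl (*Lama5* and *Itga7* higher, *Itga8*, *Lama1* and *Lamb1* lower) and 1 in ABpIF/F vs Ctrl (*Lama5*). Of the 8 calls lost in ABpIF/+ vs Ctrl, 6 still had an absolute log2 fold change of 1 or more, such as *Itga9* at -1.65 (-1.58 without the covariate), whereas *Itga6* was at -0.10 and *Lama4* at -0.70. In BG3 alone, all 3 genes called higher in ABpIF/+ lay below every ABpIF/+ mouse. Of the 10 called lower, 9 lay in BG3 above every ABpIF/+ mouse, *Itga6* being the exception. BG3 was among the Ctrl mice that gave these calls, and 10 of the 13 called genes had no overlap between the groups. Its position is therefore largely built in and is no separate test of the strain label. Adding the clock score left 2 calls in ABpIF/F vs Ctrl and 7 in ABpIF/+ vs ABpIF/F. Without BG38, 3 calls were left in ABpIF/F vs Ctrl and 12 in ABpIF/+ vs ABpIF/F.

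Among the laminin α chains, *Lama5* rose in both groups with BrafV600E, whereas *Lama1*, *Lama2* and *Lama4* fell in ABpIF/+ livers. *Lama5* (Entrez 16776), the α chain of laminins of mature epithelial and vascular basement membranes, lies on chromosome 2 of GRCm38 from 180176373 to 180225859. It had 3.65 to 5.78 CPM in Ctrl, with a median of 4.82, and 20.2 to 43.7 CPM in ABpIF/+, with a median of 31.7. The ABpIF/F mice BG38, BG90 and BG183 had 48.8, 35.0 and 29.0 CPM. All 9 mice with BrafV600E lay above all Ctrl mice, and the 2 groups with BrafV600E overlapped. The log2 fold change was 2.73 ± 0.21 (SE) in ABpIF/+ vs Ctrl (adjusted p = 1.15e-08) and 2.97 ± 0.23 in ABpIF/F vs Ctrl (adjusted p = 4.59e-08), and it kept both calls without any single mouse.

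*Lama1* (Entrez 16772, chromosome 17, 67697259 to 67822647), an α chain best known from early embryonic basement membranes, moved the other way. It had 5.61 to 7.67 CPM in Ctrl, median 6.52, and 0.57 to 1.66 CPM in ABpIF/+, median 0.87. BG38, BG90 and BG183 had 4.18, 4.04 and 4.31 CPM. The 3 groups did not overlap, with ABpIF/F between the others but nearer to Ctrl. Its log2 fold change was -2.79 ± 0.23 in ABpIF/+ vs Ctrl (adjusted p = 4.56e-09) and -2.12 ± 0.26 in ABpIF/+ vs ABpIF/F (adjusted p = 8.25e-06), while ABpIF/F vs Ctrl, at -0.68 ± 0.26, was not called (adjusted p = 0.0782).

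*Lama2*, the α chain of muscle and nerve laminins, had 1.56 to 2.43 CPM in Ctrl, median 1.81, and 0.0737 to 0.704 CPM in ABpIF/+, median 0.365. In ABpIF/F, BG38 had 4.15, BG90 1.79 and BG183 2.09 CPM, so that only the ABpIF/+ mice stood apart. The log2 fold change was -2.36 ± 0.41 in ABpIF/+ vs Ctrl (adjusted p = 1.13e-04) and -2.83 ± 0.46 in ABpIF/+ vs ABpIF/F (adjusted p = 1.39e-04). *Lama4*, a chain of vascular and mesenchymal basement membranes, had 3.45 to 6.34 CPM in Ctrl, median 5.07, and 0.645 to 2.95 CPM in ABpIF/+, median 2.39. The ABpIF/F mice had 6.90 (BG38), 6.14 (BG90) and 6.98 CPM (BG183). Again every ABpIF/+ mouse lay below every other mouse, with a log2 fold change of -1.22 ± 0.27 against Ctrl (adjusted p = 0.0013) and -1.65 ± 0.31 against ABpIF/F (adjusted p = 5.76e-04). *Lama3*, the α chain of epithelial laminin-332, was rare, at 0 to 38 counts per mouse, and was not called. In bulk liver, fewer cells of a type and less RNA per cell cannot be told apart, here and for every gene that follows.

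**Figure D1:**
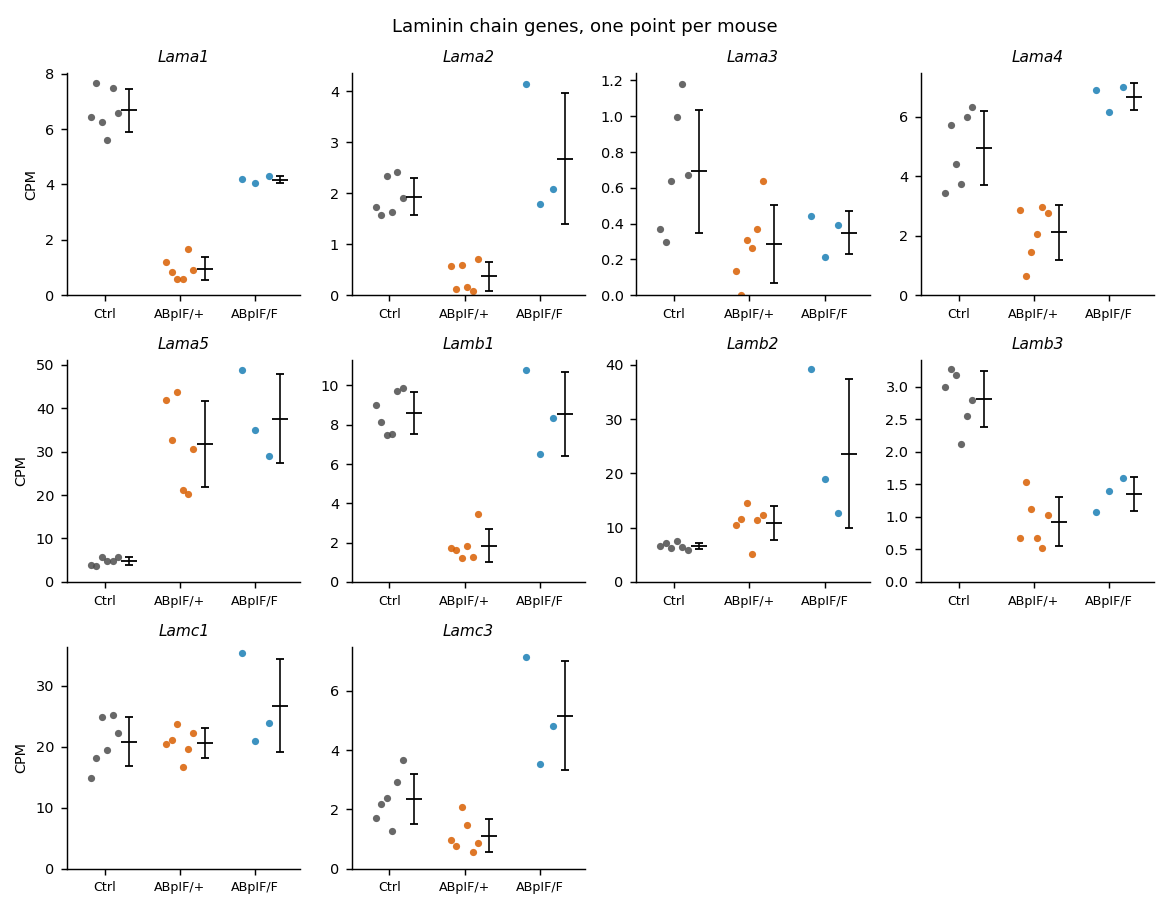
CPM (vertical axes) of 10 laminin genes in Ctrl, ABpIF/+ and ABpIF/F livers, with 1 point per mouse in a fixed order of mice (for ABpIF/F, BG38, BG90 and BG183 from left to right) and the mean ± SD beside the points (n = 6, 6 and 3). *Lama5* lay between 20.2 and 48.8 CPM in the mice with BrafV600E and at most at 5.78 CPM in Ctrl, whereas *Lama1*, *Lama2*, *Lama4* and *Lamb1* were lower in each ABpIF/+ mouse than in any other mouse.

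Of the laminin β chains, *Lamb1* and *Lamb3* fell in ABpIF/+ livers and *Lamb2* rose in ABpIF/F livers. *Lamb1* (Entrez 16777, chromosome 12, 31265234 to 31329644), the β chain of laminin-111 and of many other trimers, had 7.45 to 9.88 CPM in Ctrl, median 8.57, and 1.20 to 3.45 CPM in ABpIF/+, median 1.68. Its values in BG38, BG90 and BG183 were 10.8, 6.50 and 8.35 CPM. Ctrl and ABpIF/F values overlapped and all ABpIF/+ values lay below them, with a log2 fold change of -2.21 ± 0.22 against Ctrl (adjusted p = 8.05e-08) and -2.20 ± 0.25 against ABpIF/F (adjusted p = 3.99e-06). *Lamb2*, the β chain that joins *Lama5* in laminin-521, had 5.82 to 7.54 CPM in Ctrl, median 6.48, and 5.09 to 14.5 CPM in ABpIF/+, median 11.5. Among ABpIF/F mice, BG38 had 39.2, BG90 19.0 and BG183 12.8 CPM, all above the Ctrl mice. Its log2 fold change was 1.84 ± 0.28 in ABpIF/F vs Ctrl (adjusted p = 1.42e-04). The call of *Lamb2* in ABpIF/+ vs ABpIF/F (-1.12 ± 0.28, adjusted p = 0.00931) was lost on leaving out any of 13 of the 15 mice and was -0.54 without BG38. *Lamb3*, the β chain of laminin-332, had 2.12 to 3.28 CPM in Ctrl, median 2.90, and 0.516 to 1.53 CPM in ABpIF/+, median 0.853. BG38, BG90 and BG183 had 1.08, 1.39 and 1.60 CPM, also below all Ctrl mice, but only ABpIF/+ vs Ctrl was called (-1.60 ± 0.26, adjusted p = 5.98e-05). In ABpIF/F vs Ctrl the value was -1.05 ± 0.32 (adjusted p = 0.0253). *Hsd11b1* lies on the opposite strand within the span of *Lamb3*, with no shared exonic base.

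Of the γ chains, *Lamc1*, the common γ chain of most laminins, was not called in any comparison, with group means of 20.9 ± 4.07 (SD, n = 6), 20.6 ± 2.43 (n = 6) and 26.8 ± 7.60 (n = 3) CPM in Ctrl, ABpIF/+ and ABpIF/F. *Lamc3*, a γ chain found outside classical basement membranes too, had 1.28 to 3.65 CPM in Ctrl, median 2.30, and 0.553 to 2.09 CPM in ABpIF/+, median 0.909. The ABpIF/F mice had 7.15 (BG38), 3.54 (BG90) and 4.80 CPM (BG183). It was called between the 2 groups with BrafV600E (-2.21 ± 0.35, adjusted p = 1.38e-04) and missed the threshold against Ctrl (adjusted p = 0.0119 in ABpIF/+ and 0.0267 in ABpIF/F).

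Per kilobase of merged exon, *Lama1* was the leading α chain in every Ctrl mouse and *Lama5* in every mouse with BrafV600E. *Lama1* held 40.8% ± 4.54 (SD, n = 6) of the summed α chain CPM per kb in Ctrl, 3.47% ± 2.15 (n = 6) in ABpIF/+ and 9.92% ± 2.10 (n = 3) in ABpIF/F. *Lama5* held 24.7% ± 4.14 in Ctrl, 88.8% ± 5.66 in ABpIF/+ and 73.1% ± 4.44 in ABpIF/F. The Ctrl mice ranged from 18.7% to 29.4% and the mice with BrafV600E from 68.2% to 95.1%, so the ranges did not overlap. Among the β chains *Lamb2* held 45.7% ± 4.43 in Ctrl, 83.8% ± 5.91 in ABpIF/+ and 76.0% ± 9.09 in ABpIF/F, and *Lamb1* made up 36.4% ± 4.10, 9.40% ± 4.62 and 19.0% ± 6.53. The summed α chain level was 1.70 ± 0.21 CPM per kb in Ctrl, 3.11 ± 0.86 in ABpIF/+ and 4.48 ± 0.98 in ABpIF/F, while the summed β chain level was 2.39 ± 0.08, 2.12 ± 0.55 and 4.96 ± 2.40. These shares follow from the chains above and were not tested.

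**Figure D2:**
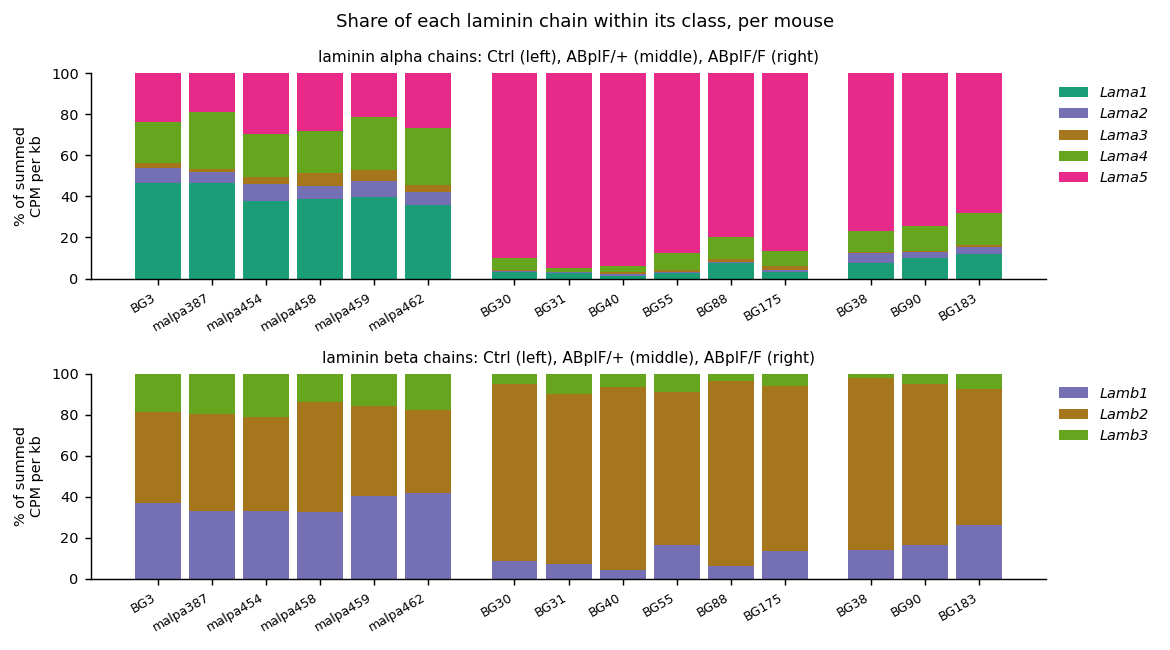
Share in percent of each chain in the summed CPM per kb of its class (α above, β below), with 1 stacked bar per mouse named on the horizontal axis, in the order Ctrl, ABpIF/+ and ABpIF/F. *Lama5* made up 18.7% to 29.4% of the α chains in Ctrl and at least 68.2% in each mouse with BrafV600E.

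The promoters of 3 genes that kept their calls under the strain label and without any single mouse are shown, 1 that rose and 2 that fell, because the genes moved in opposite directions. The sequences are from RefSeq on GRCm38.p6, whose table held promoters of 23 of the 37 genes, and each ends at the base before the gene's start in the RefSeq table or in GENCODE, whichever lies further upstream (RefSeq for *Itga8*). Capitals mark GGGCGG, the GC box, on either strand.

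Lama5 upstream of the start, chr2:180225860-180226059, minus strand: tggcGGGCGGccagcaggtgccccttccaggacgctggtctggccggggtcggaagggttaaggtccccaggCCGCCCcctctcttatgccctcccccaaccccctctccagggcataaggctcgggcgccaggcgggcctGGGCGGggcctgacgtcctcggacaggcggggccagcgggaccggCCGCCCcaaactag

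Lamb1 upstream of the start, chr12:31265043-31265233, plus strand: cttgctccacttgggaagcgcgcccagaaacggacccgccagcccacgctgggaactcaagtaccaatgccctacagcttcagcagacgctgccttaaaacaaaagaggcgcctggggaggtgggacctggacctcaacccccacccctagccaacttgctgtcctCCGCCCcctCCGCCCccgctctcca

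Itga8 upstream of the start, chr2:12301945-12302144, minus strand: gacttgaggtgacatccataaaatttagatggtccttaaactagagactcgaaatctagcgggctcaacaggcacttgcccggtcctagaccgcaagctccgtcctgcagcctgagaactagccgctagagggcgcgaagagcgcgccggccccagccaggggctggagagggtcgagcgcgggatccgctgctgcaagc

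The printed *Lama5* stretch of 200 bases held 4 GC boxes, the *Lamb1* stretch of 191 bases 2 and the *Itga8* stretch of 200 bases 0. In windows of 250 bases before to 50 after the start, 11 of the 23 genes held this motif, against 35.7% of all 32851 windows. A gene was counted if any of its windows held the motif, whereas the percentage is over single windows. For every motif here the 2 figures are therefore unlike measures. Searched likewise on both strands, TGANTCA (AP-1) was in 3 of the 23 and in 7.81% of all windows, CCGGAA (ETS) in 2 and 14.9%, GGAATG (TEAD) in 3 and 14.7%, and TATAAA in 0 and 13.6%. None of these 4 motifs was in the 3 stretches shown. The GC content of the whole window was 72.7% for *Lama5*, 63.7% for *Lamb1* and 59.0% for *Itga8*, with a median of 52.7% over all windows.

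The laminin-binding integrin α subunits each had a course of their own. *Itga7* (Entrez 16404, chromosome 10, 128933818 to 128958282), best known as the laminin receptor of muscle, was 7.74 to 11.8 CPM in Ctrl, median 9.31, and 19.2 to 26.3 CPM in ABpIF/+, median 24.7. Its values in BG38, BG90 and BG183 were 8.84, 17.4 and 12.2 CPM. Every ABpIF/+ mouse lay above all others, and the log2 fold change against Ctrl was 1.32 ± 0.15 (adjusted p = 3.62e-07). Between ABpIF/+ and ABpIF/F it was 0.89 ± 0.18 (adjusted p = 0.00136), under the 2-fold limit, and ABpIF/F vs Ctrl was not called (0.43 ± 0.18, adjusted p = 0.101). *Itga3*, the receptor for laminin-332 and for laminins with *Lama5*, had 7.30 to 10.0 CPM in Ctrl, median 9.22, and 9.81 to 11.3 CPM in ABpIF/+, median 10.4. Among ABpIF/F mice, BG38 had 42.0, BG90 18.1 and BG183 13.2 CPM, all above the other groups. The log2 fold change was 1.47 ± 0.23 in ABpIF/F vs Ctrl (adjusted p = 9.21e-05), and 0.83 without BG38, which ended that call. In ABpIF/+ vs ABpIF/F it was -1.22 ± 0.23 (adjusted p = 7.37e-04), and -0.58 without BG38. *Itga6*, the partner of β1 and β4 in laminin binding, had 2.13 to 6.23 CPM in Ctrl, median 4.28, and 1.28 to 2.59 CPM in ABpIF/+, median 2.00. BG38, BG90 and BG183 had 9.83, 7.40 and 3.69 CPM. Ctrl overlapped both other groups, which did not overlap each other (-1.81 ± 0.31, adjusted p = 2.57e-04), and the call against Ctrl (-1.01 ± 0.27, adjusted p = 0.00652) was lost on leaving out any of 8 mice.

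*Itgb4*, the partner of *Itga6* in hemidesmosomes, had 0.369 to 1.45 CPM in Ctrl, median 0.854, and 0.679 to 1.18 CPM in ABpIF/+, median 0.791. In ABpIF/F, BG38 had 3.91, BG90 1.93 and BG183 1.76 CPM, above all other mice. Its log2 fold change was 1.62 ± 0.38 in ABpIF/F vs Ctrl (adjusted p = 0.0035) and -1.58 ± 0.38 in ABpIF/+ vs ABpIF/F (adjusted p = 0.00456), falling to 1.16 and -1.12 without BG38, where neither was called. The second call was also lost without BG55 or BG88. *Itgb4* shares 537 exonic bases with B230344G16Rik on the opposite strand, and the strand setting of the counting is not given in the sources used here. *Itgb1*, the partner of most α subunits of the set, was not called and had 166 ± 10.5 (SD, n = 6), 181 ± 17.2 (n = 6) and 203 ± 20.7 (n = 3) CPM in Ctrl, ABpIF/+ and ABpIF/F. Per kilobase it was the most abundant of the 37 genes in each group, at 40.6, 44.4 and 49.8 CPM per kb, ahead of *Itgb5* at 21.5, 25.2 and 31.3.

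**Figure D3:**
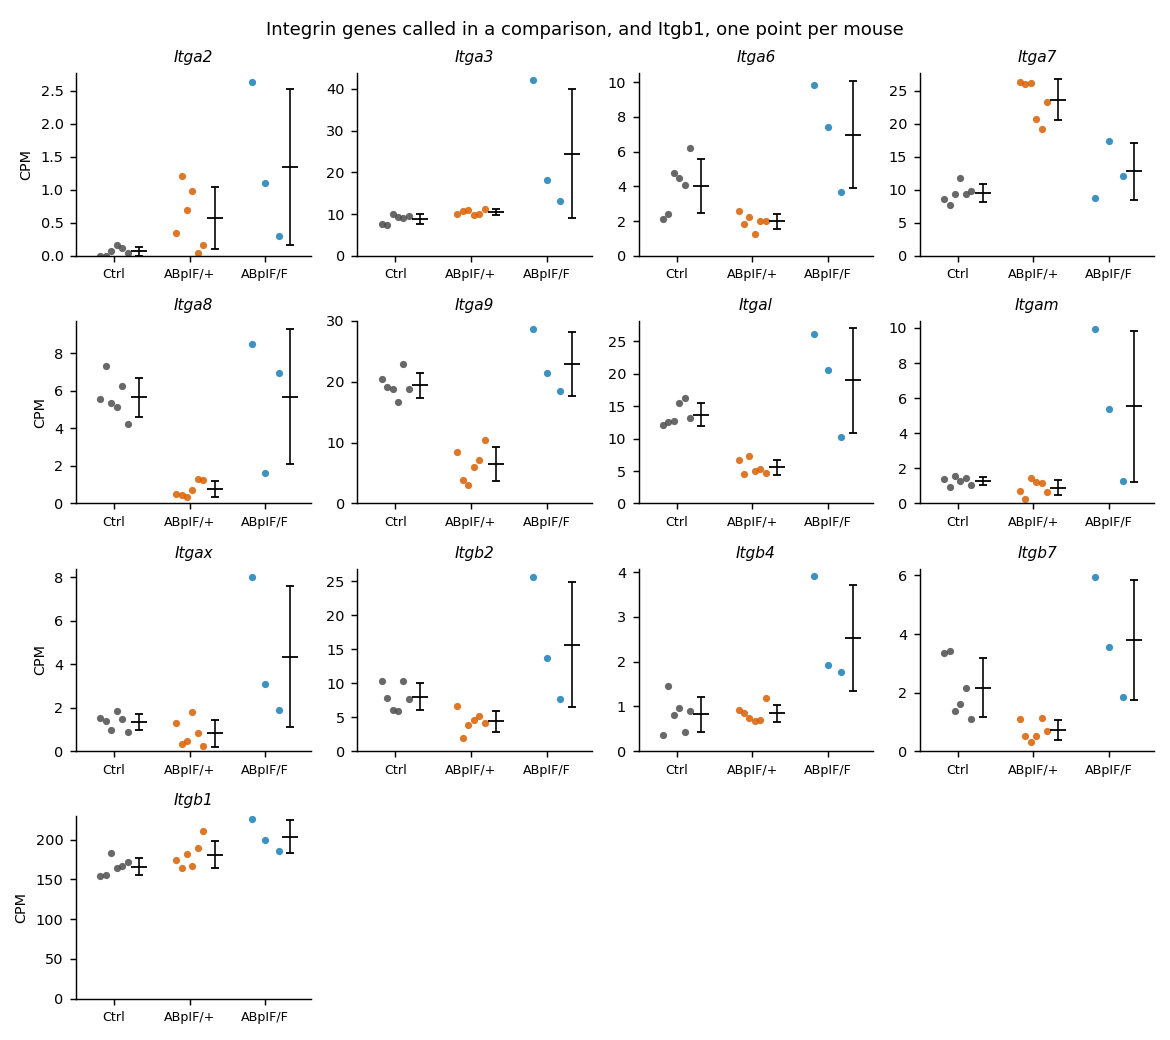
CPM (vertical axes) of the 12 integrin genes called in a comparison and of *Itgb1* in Ctrl, ABpIF/+ and ABpIF/F livers, with 1 point per mouse in a fixed order of mice (for ABpIF/F, BG38, BG90 and BG183 from left to right) and the mean ± SD beside the points (n = 6, 6 and 3). *Itga7* lay at 19.2 CPM or above in ABpIF/+ mice only, and BG38 is the highest point for 11 of the 12 called genes, *Itga7* being the exception.

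The other integrins of solid tissue cells were led by a fall of *Itga8* and *Itga9* in ABpIF/+. *Itga8* (Entrez 241226, chromosome 2, 12106632 to 12301922), an RGD-binding subunit that marks hepatic stellate cells and other mesenchyme, had 4.25 to 7.33 CPM in Ctrl, median 5.46, and 0.348 to 1.33 CPM in ABpIF/+, median 0.614. The ABpIF/F mice had 8.48 (BG38), 1.64 (BG90) and 6.95 CPM (BG183), so BG90 stood close to the ABpIF/+ mice and the other two within or above the range of Ctrl. The log2 fold change was -2.86 ± 0.37 against Ctrl (adjusted p = 7.56e-06) and -2.88 ± 0.41 against ABpIF/F (adjusted p = 8.32e-05). It shares 372 exonic bases with E030013I19Rik on the opposite strand. *Itga9*, a receptor for tenascin-C and osteopontin, had 16.7 to 22.9 CPM in Ctrl, median 19.0, and 2.98 to 10.4 CPM in ABpIF/+, median 6.59. Its values in BG38, BG90 and BG183 were 28.7, 21.4 and 18.5 CPM. Only the ABpIF/+ mice stood apart, with -1.58 ± 0.23 against Ctrl (adjusted p = 4.78e-05) and -1.81 ± 0.27 against ABpIF/F (adjusted p = 1.39e-04).

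*Itga2*, the collagen receptor of platelets and epithelia, was near the detection limit in Ctrl, with 0 to 5 counts per mouse. It had 0.0368 to 1.21 CPM in ABpIF/+, median 0.519, and BG38, BG90 and BG183 had 2.63, 1.11 and 0.294 CPM. The ABpIF/F mice lay above all Ctrl mice, whereas 2 ABpIF/+ mice, with 1 and 5 counts, overlapped them. The fitted log2 fold change was 4.21 ± 0.85 in ABpIF/F vs Ctrl (adjusted p = 0.00135) and 2.96 ± 0.80 in ABpIF/+ vs Ctrl (adjusted p = 0.00843). The first call was lost without BG38 and the second on leaving out any of 10 mice. Of the uncalled collagen receptors, *Itga1* had group means of 21.1, 14.4 and 20.7 CPM in Ctrl, ABpIF/+ and ABpIF/F, *Itga10* of 1.60, 0.788 and 1.12 CPM, and *Itga11* at most 13 counts in a mouse.

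The remaining uncalled subunits were the RGD-binding *Itga2b*, *Itga5* and *Itgav*, *Itga4*, and *Itgb3*, *Itgb5*, *Itgb6* and *Itgb8*. *Itga5*, the fibronectin receptor subunit, had 17.8 to 29.4 CPM in Ctrl, 18.1 to 28.1 CPM in ABpIF/+ and 34.5 to 42.9 CPM in ABpIF/F. The ABpIF/F mice lay above all others, with a log2 fold change of 0.87 ± 0.15 against Ctrl (adjusted p = 2.25e-04), under the 2-fold limit. *Itgb3*, the platelet and αV partner, missed that limit narrowly in ABpIF/+ vs Ctrl (1.00 ± 0.21 after rounding, adjusted p = 7.89e-04), with 4.34 to 6.59 CPM in Ctrl and 7.27 to 12.6 CPM in ABpIF/+. *Itgav* and *Itgb5* differed by less than 2-fold in every comparison, and *Itga2b* did so too, at group means of 3.43, 5.12 and 6.29 CPM. *Itga4*, which pairs with β1 and β7 on lymphocytes, had 4.31 to 9.01, 2.69 to 11.2 and 7.90 to 16.5 CPM in Ctrl, ABpIF/+ and ABpIF/F and shares 1124 exonic bases with *Cerkl* on the opposite strand. *Itgb6* had at most 7 counts and *Itgb8* at most 33 in any mouse.

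Of the 7 leukocyte integrins 5 were called lower in ABpIF/+ than in ABpIF/F livers, 2 of them also against Ctrl. *Itgal*, the α subunit of the lymphocyte receptor LFA-1, had 12.0 to 16.2 CPM in Ctrl, median 12.9, and 4.60 to 7.39 CPM in ABpIF/+, median 5.14. Among ABpIF/F mice, BG38 had 26.1, BG90 20.6 and BG183 10.2 CPM. All ABpIF/+ mice lay below all others, with -1.29 ± 0.18 against Ctrl (adjusted p = 9.83e-06) and -1.76 ± 0.21 against ABpIF/F (adjusted p = 6.84e-06). *Itgb7*, which pairs with α4 or αE on gut-homing lymphocytes, had 1.08 to 3.42 CPM in Ctrl, median 1.87, and 0.310 to 1.14 CPM in ABpIF/+, median 0.616. BG38, BG90 and BG183 had 5.95, 3.57 and 1.86 CPM, and the groups overlapped except ABpIF/+ and ABpIF/F. The log2 fold change was -1.58 ± 0.37 against Ctrl (adjusted p = 0.00218) and -2.39 ± 0.41 against ABpIF/F (adjusted p = 2.78e-04).

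*Itgam*, the CD11b subunit of neutrophils and macrophages, had 0.931 to 1.59 CPM in Ctrl, median 1.34, and 0.242 to 1.43 CPM in ABpIF/+, median 0.948. In ABpIF/F, BG38 had 9.92, BG90 5.39 and BG183 1.31 CPM, so BG183 lay within both other groups. The log2 fold change of 2.11 ± 0.45 in ABpIF/F vs Ctrl (adjusted p = 0.0018) was 1.38 without BG38 and not called, while that of -2.62 ± 0.45 in ABpIF/+ vs ABpIF/F (adjusted p = 3.61e-04) was -1.89 without BG38 and still called. *Itgax*, the CD11c subunit of dendritic cells, had 0.858 to 1.86 CPM in Ctrl, median 1.42, and 0.256 to 1.81 CPM in ABpIF/+, median 0.637. The ABpIF/F mice had 8.00 (BG38), 3.11 (BG90) and 1.89 CPM (BG183). *Itgb2*, the shared β subunit of these receptors, had 5.84 to 10.4 CPM in Ctrl, median 7.67, and 1.90 to 6.58 CPM in ABpIF/+, median 4.29. Its values in BG38, BG90 and BG183 were 25.6, 13.7 and 7.64 CPM. Both genes were called between the 2 groups with BrafV600E alone, *Itgax* at -2.39 ± 0.49 (adjusted p = 0.00163) and *Itgb2* at -1.84 ± 0.33 (adjusted p = 8.48e-04), and neither was called without BG38. *Itgae* had 1 to 42 counts per mouse and *Itgad* at most 2, and neither was called.

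Set side by side, 9 genes were called lower in ABpIF/+ than in both other groups and not called in ABpIF/F vs Ctrl: *Itga6*, *Itga8*, *Itga9*, *Itgal*, *Itgb7*, *Lama1*, *Lama2*, *Lama4* and *Lamb1*. Only *Itga8*, *Lama1* and *Lamb1* kept both calls with either covariate. With the clock score *Itga9*, *Itgb7* and *Lama4* lost the call against ABpIF/F, at log2 fold changes of -1.82, -1.69 and -1.56. With the strain label *Itga6* and *Lama4* were at -0.10 and -0.70 against Ctrl, and the others stayed at -1 or below. In *Itga3*, *Itgam*, *Itgb4* and *Lamb2*, ABpIF/F was called higher than both other groups, but each lost a call with the clock score and also without BG38. *Lama5* and *Itga2* were higher than Ctrl in both groups with BrafV600E and not called between them, with a difference of -0.25 ± 0.23 for *Lama5* (adjusted p = 0.611). The group mean was lowest in ABpIF/+ for 25 of the 37 genes and highest in ABpIF/F for 27. The shares of all genes with these orders of means were not computed. Because the comparisons share mice, the agreement of one with another is partly built in.

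**Figure D4:**
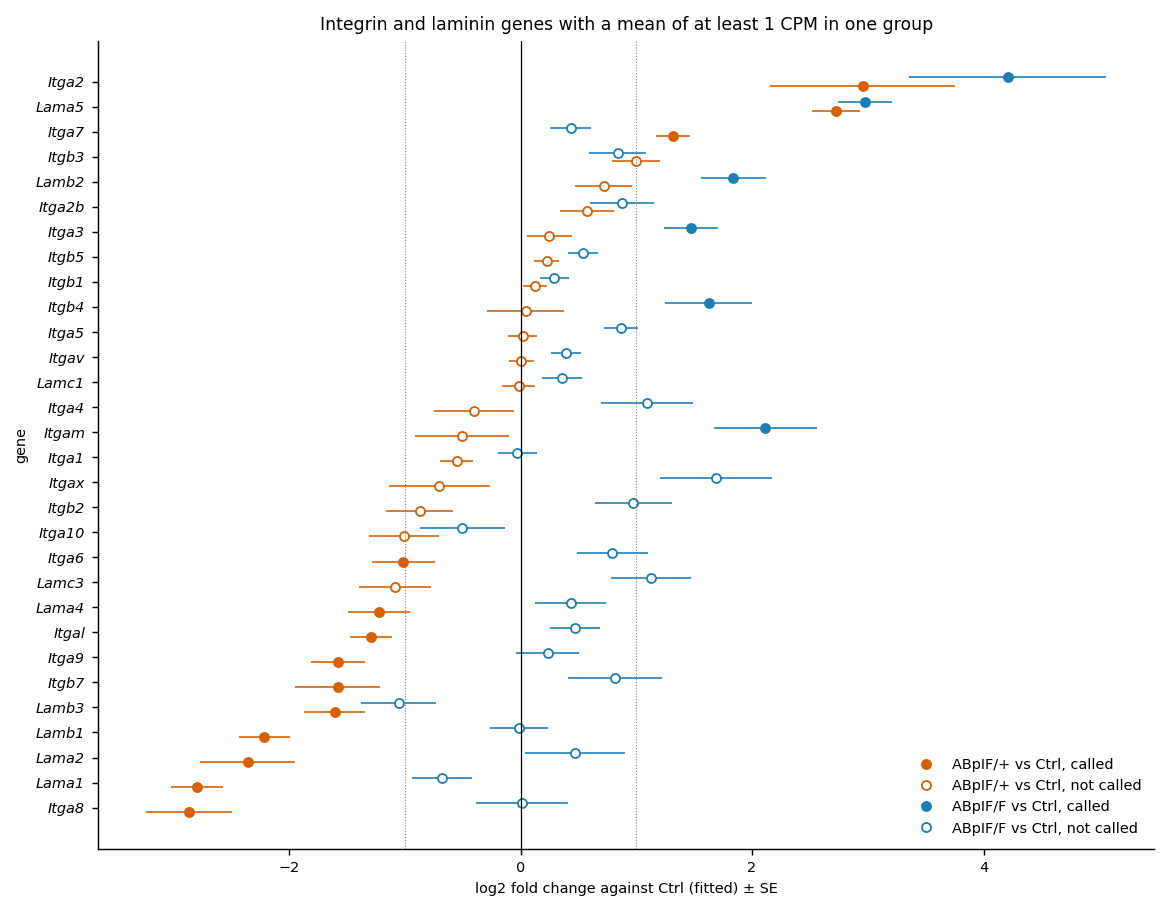
Fitted log2 fold change ± SE against Ctrl (horizontal axis) of 30 integrin and laminin genes with a group mean of 1 CPM or more (vertical axis, sorted by ABpIF/+ vs Ctrl), for ABpIF/+ (orange) and ABpIF/F (blue), filled where called, with dotted lines at -1 and 1. *Lama5* lay near 3 in both groups, whereas *Itga8* and *Lamb1* lay at -2.86 and -2.21 in ABpIF/+ and at 0.02 and -0.01 in ABpIF/F.

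Marker lists of other liver cell types moved alongside. Of all genes with a read, 7.13% were called lower in ABpIF/+ than in Ctrl and 7.32% lower in ABpIF/+ than in ABpIF/F. Of 12 stellate cell and fibroblast markers, 9 fell in ABpIF/+ vs Ctrl and 11 were lower in ABpIF/+ than in ABpIF/F. Their summed level was 233 to 303 CPM in Ctrl, 62.4 to 133 CPM in ABpIF/+ and 257 to 422 CPM in ABpIF/F. The collagen genes *Col1a1* (-4.30) and *Col3a1* (-4.32) had the largest log2 falls in ABpIF/+ vs Ctrl. Macrophage and Kupffer cell markers fell in 5 of 8, with sums of 281 to 377, 120 to 192 and 227 to 551 CPM in Ctrl, ABpIF/+ and ABpIF/F. Lymphocyte markers fell in 4 of 12, with sums of 5.19 to 9.11, 1.13 to 3.82 and 7.43 to 18.5 CPM. Of 9 endothelial markers 2 fell, with sums of 218 to 319, 130 to 267 and 264 to 373 CPM. The dendritic cell list had 2 of 6 genes called lower in ABpIF/+ and summed to 6.90 to 8.61, 3.83 to 11.5 and 7.04 to 12.8 CPM.

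In ABpIF/F vs Ctrl, where 6.06% of all genes with a read were called higher, other lists rose. Of 10 cholangiocyte markers 8 were called higher, with sums of 26.4 to 38.7 CPM in Ctrl, 43.2 to 77.3 in ABpIF/+ and 90.3 to 217 in ABpIF/F, and with log2 fold changes of 5.44 for *Tspan8* and 3.70 for *Sox9*. Neutrophil markers rose in 7 of 8, with sums of 2.47 to 4.35, 2.42 to 8.03 and 4.93 to 88.7 CPM, and platelet markers in 5 of 7, with sums of 0.856 to 2.71, 3.47 to 5.18 and 2.48 to 12.0 CPM. BG38 had the highest sum of all mice for stellate cells, cholangiocytes, macrophages, lymphocytes, neutrophils, dendritic cells and platelets. The hepatocyte sum was 99407 to 133964 CPM in Ctrl, 155746 to 220033 in ABpIF/+ and 121263 to 211801 in ABpIF/F, with the lowest ABpIF/F value in BG38. None of 5 mesothelium markers was called by edgeR in any comparison. No defining marker was at 0 in every mouse, and the part that any of these lists had in the integrin and laminin results was not tested.

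**Figure D5:**
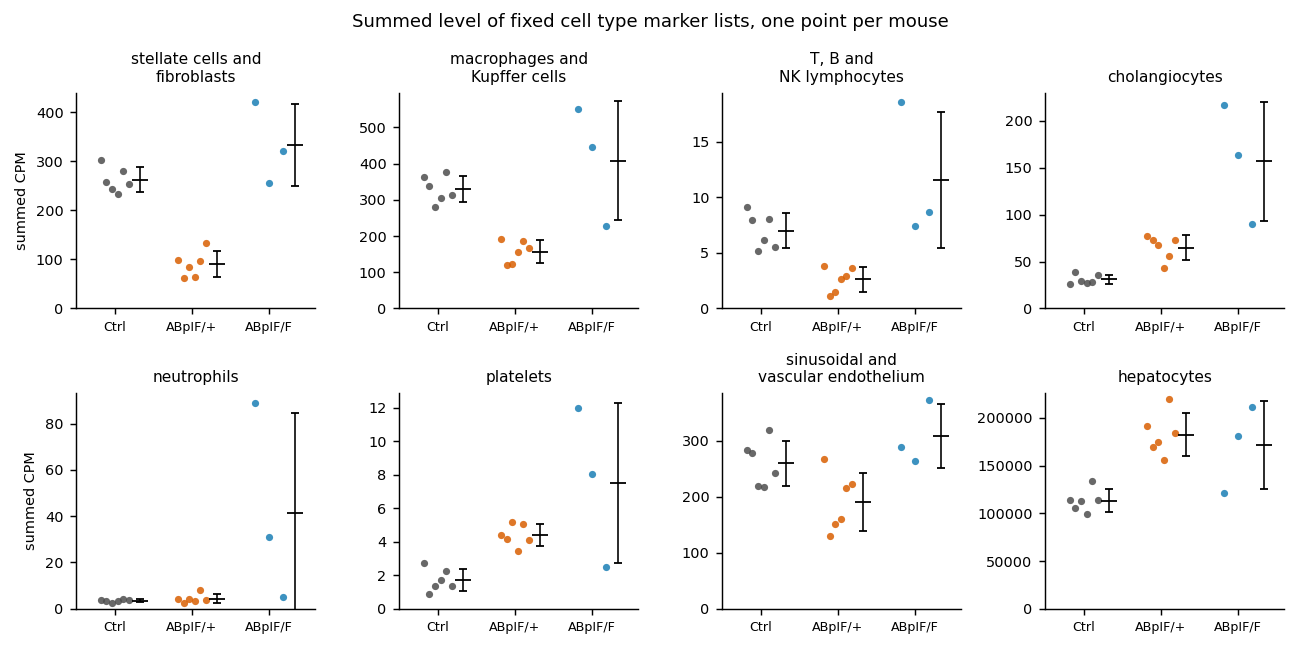
Summed CPM (vertical axes) of 8 marker lists in Ctrl, ABpIF/+ and ABpIF/F livers, with 1 point per mouse in a fixed order of mice (for ABpIF/F, BG38, BG90 and BG183 from left to right) and the mean ± SD beside the points (n = 6, 6 and 3), the bars being cut at 0. The stellate cell and fibroblast sum was at most 133 CPM in ABpIF/+ and at least 233 CPM in the other mice, and BG38 is the highest point for cholangiocytes and neutrophils.

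Other components of basement membranes were called in both directions. Of 14 such genes, 4 rose and 2 fell in ABpIF/+ vs Ctrl, 5 rose and 1 fell in ABpIF/F vs Ctrl, and 4 were lower in ABpIF/+ than in ABpIF/F. In the same order, 6.26%, 7.13%, 6.06%, 3.17% and 7.32% of all genes with a read were called. *Nid1*, encoding nidogen-1, which links laminin to collagen IV, rose from 20.4 ± 7.13 (SD) CPM in Ctrl to 221 ± 45.8 in ABpIF/+ and 399 ± 96.1 in ABpIF/F, with edgeR log2 fold changes of 3.43 ± 0.23 (adjusted p = 1.21e-09) and 4.29 ± 0.25 (adjusted p = 8.14e-10). The collagen IV chains *Col4a3* (4.37 and 4.75), *Col4a4* (3.08 and 3.82) and *Col4a5* (1.30 and 1.92) rose in log2 in both groups against Ctrl. *Col15a1*, a collagen at the border of basement membranes, fell by 3.08 and 1.73, and *Agrn*, a laminin-binding proteoglycan, was called in ABpIF/F (1.23) and not in ABpIF/+ (-0.01).

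Among 17 other integrin ligands, 3 fell in ABpIF/+ vs Ctrl, 9 rose in ABpIF/F vs Ctrl and 7 were lower in ABpIF/+ than in ABpIF/F. The shares of all genes with a read called in these directions were 7.13%, 6.06% and 7.32%. *Tnc*, encoding tenascin-C, a ligand of the α9 and αV integrins, fell by 2.78 in ABpIF/+ and rose by 1.76 in ABpIF/F on the log2 scale. *Spp1*, encoding osteopontin, rose by 3.91 in ABpIF/F, from 43.8 to 660 CPM, and *Thbs1*, encoding thrombospondin-1, by 3.31. Of 5 other laminin receptors *Bcam*, a receptor for laminins with *Lama5*, rose by 1.54 in ABpIF/F, and of 3 hemidesmosome genes none was called by edgeR in any comparison. Of 25 genes of the adhesion complex inside the cell, 2 rose and 2 fell in ABpIF/+ vs Ctrl. In ABpIF/F vs Ctrl 2 rose and 1 fell, and 4 were lower in ABpIF/+ than in ABpIF/F. In the same order, 13.4%, 9.24% and 9.66% of all genes with a read were called, so this list was not called less often than they were. The called genes included *Ptk2b*, a kinase of the focal adhesion family, which fell by 2.44 in ABpIF/+ and by 1.25 in ABpIF/F against Ctrl. Another was *Src*, which rose by 1.24 and 1.92.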

How the data were processed

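Liver RNA of 15 female mice was measured (6 Ctrl, 6 ABpIF/+ and 3 ABpIF/F), grouped by the genotype in the labels. RNA was isolated by the authors from frozen tissue with Trizol and sequenced from both ends as stranded mRNA libraries. They trimmed the reads, checked them with FastQC 0.12.1, aligned them to mm10 with HISAT2 (2.2.1 in the paper, 2.21 in the submitters' processing notes) and made raw counts per gene with featureCounts 2.0.8, which they deposited without normalization. The gene annotation and strand setting are not given in the sources used here. The table has 27179 genes and 1 column per mouse, while 23 samples are listed, 8 mice having 2 samples, so libraries of 1 mouse were not told apart. Deposited columns of the authors' own comparisons (fold changes and p-values) and a second copy of the counts were not used.

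With R 4.3.3 and edgeR 4.0.16, libraries were scaled by TMM and all genes were kept. A quasi-likelihood model with the 3 groups was fitted robustly in the form of edgeR 3.36, which the authors used, and p-values were adjusted by Benjamini-Hochberg over all genes. The thresholds, 2-fold and 0.01, are the study's. SE is the absolute log2 fold change over the root of F. P-values set the difference between groups against the spread between mice, which was estimated over the 3 groups together. Depth limits the rare members, and counting error alone is covered by their counts. Levels per kilobase used merged exons of GENCODE M21 on GRCm38. In simulated counts, 200 genes with a mean of 1 CPM or more were changed in ABpIF/+ only, by more than the 2-fold limit. In ABpIF/+ vs Ctrl edgeR recovered 196 of these 200. Changes at the limit, rarer genes and changes in ABpIF/F were not simulated, so recovery of such genes is not known.

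Alternatives were RLE size factors, DESeq2 1.42.0, filterByExpr, the edgeR 4 method, no robust estimation, other thresholds, only the groups compared, the strain label or a clock gene score as a covariate, and leaving out each mouse. Members called in any comparison are given in full, except 1 gene that is counted but not reported here, and of pathway or marker lists up to 4 called genes with the largest change and a group mean of 1 CPM or more could be named. The members, lists and tests were chosen with earlier results of these data known. Proteomics and reads were not analysed here.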

Additional observations from a re-analysis of the deposited data

Results flagged for a closer look

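Of 73 groups of 6 mice in which a gene of the set had a read, 5 held a mouse whose gap to the nearest other mouse was large for the range of its group. For normally distributed values chance alone gives such a gap in about 1 of 20 groups, a rate that does not hold for genes with few counts. In ABpIF/+ livers BG40 had 8.09 CPM of *Itga2b*, where the next mouse had 5.08, and 11.2 CPM of *Itga4*, where the next had 4.43. BG175 had 3.45 CPM of *Lamb1*, where the next ABpIF/+ mouse had 1.81, and it stayed below every Ctrl and ABpIF/F mouse. BG175 also had 1 count of *Itgb6* (0.0320 CPM) where the other ABpIF/+ mice had none, a case that the rule flags whatever the count. In Ctrl, malpa387 had 29.4 CPM of *Itga5*, where the next mouse had 20.3. The groups of 3 ABpIF/F mice were not tested in this way.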

How the results depend on the processing

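No call changed direction under any alternative. RLE size factors, DESeq2, filterByExpr, the edgeR 4 method, no robust estimation and an adjusted p under 0.05 lost none of the 37 calls of a gene in a comparison, and fitting only the groups compared lost 5. Filtering left 4 genes, and DESeq2 1, without an adjusted p. With the strain label as a covariate 15 calls were lost, with counts of 5 in ABpIF/+ vs Ctrl (13 before) and 1 in ABpIF/F vs Ctrl (7 before), and 13 of the 15 kept an absolute log2 fold change of 1 or more, *Itga6* and *Lama4* in ABpIF/+ vs Ctrl being the exceptions. With the clock score 16 calls were lost, all of which kept an absolute log2 fold change of 1 or more, with counts of 2 in ABpIF/F vs Ctrl and 7 in ABpIF/+ vs ABpIF/F (17 before). At an absolute log2 fold change of 2 or more the counts were 6, 4 and 9, which follows from the stricter limit. Leaving out 1 mouse at a time gave 11 to 14 calls in ABpIF/+ vs Ctrl, 3 (without BG38) to 11 (without BG183) in ABpIF/F vs Ctrl and 12 (without BG38) to 18 (without BG40) in ABpIF/+ vs ABpIF/F. Without BG90 1 gene was called higher in ABpIF/+ than in ABpIF/F. The cause of the losses under the covariates and without BG38 was not tested. No paired analysis was possible because each column is a different mouse and the numbers in the sample titles mark repeat samples of 1 mouse. Depth limits *Itga11*, *Itgad*, *Itgb6* and *Itga2* in Ctrl, which had few counts.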
